A study of Mus musculus with 6 samples.

Results

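The BCL2 family, the caspases and the genes of necroptosis and pyroptosis were examined in fat pads from beside the epididymis (epididymal white adipose tissue, eWAT) of cachectic and control mice. These are 38 genes chosen by name, of 54532 genes in the deposited table, and all 38 were found there with enough counts to be tested. The cachectic group was 3 male C57BL/6 mice inoculated under the skin with LLC cells (Lewis lung carcinoma, a tumor line of this strain), and the control group was 3 C57BL/6 mice, for which no injection is stated. The mice were obtained at 6 to 10 weeks of age and the tissue was taken on day 21, and no engineered allele is given for either group. The study defined cachexia by loss of body weight in tumor-bearing mice, so tumor burden and weight loss cannot be told apart. Total RNA of the fat pad was sequenced as 1 library per mouse, with 14928766 to 18855546 counts per library and fewer counts in each cachectic than in each control library. P-values set the difference between the groups against the spread between libraries of the same group, and rest on these 6 libraries alone. SE is the standard error of a fitted log2 fold change, and values listed by mouse follow the order of replicates 1, 2 and 3.

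Cells can die by several routes, and each has its own proteins. In the intrinsic route of apoptosis, BH3-only proteins such as PUMA and BIM block the anti-apoptotic members of the BCL2 family or switch on BAX and BAK, which then open the outer mitochondrial membrane. Cytochrome c leaves the mitochondria, assembles the apoptosome with APAF1 and activates caspase-9. Death receptors such as FAS start apoptosis through FADD and caspase-8 instead. Necroptosis runs through RIPK1, RIPK3 and the membrane-breaking protein MLKL, and pyroptosis runs through inflammasomes, inflammatory caspases and the gasdermin pores. Most of these proteins are switched on by cleavage, phosphorylation or movement within the cell, none of which RNA-seq measures.

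Each of the 38 death genes was tested for a difference between the groups. A gene was called where edgeR's quasi-likelihood test gave a p-value under 0.05 after Benjamini-Hochberg adjustment over the 16003 genes tested. By this rule 5 of the 38 genes were called (13.2%), against 17.6% of all genes tested. Gsdmd and Hrk rose in cachectic mice (5.26% of the 38 genes, against 9.0% of all genes), and Bbc3, Cycs and Mlkl fell (7.89%, against 8.63%). The shares among the 38 genes were no higher than among all genes tested, and nothing is read from them about the list. The median log2 fold change of cachectic over control mice was 0.11 over the 38 genes and -0.0031 over all genes tested. In 17 of the 38 genes (44.7%) the values of the groups did not overlap, against 40.5% of all genes tested, and 10 of them were higher and 7 lower in cachectic mice, where the shares of all genes were 20.4% and 20.1%. With 3 mice in each group, a two-sided exact permutation test of 1 gene cannot give a p-value under 0.1. For some lists below, the number of genes at an unadjusted p under 0.05 from edgeR is also given. The share of all genes tested at that cutoff was not computed, so nothing is read from these numbers about the lists.

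**Figure D1:**
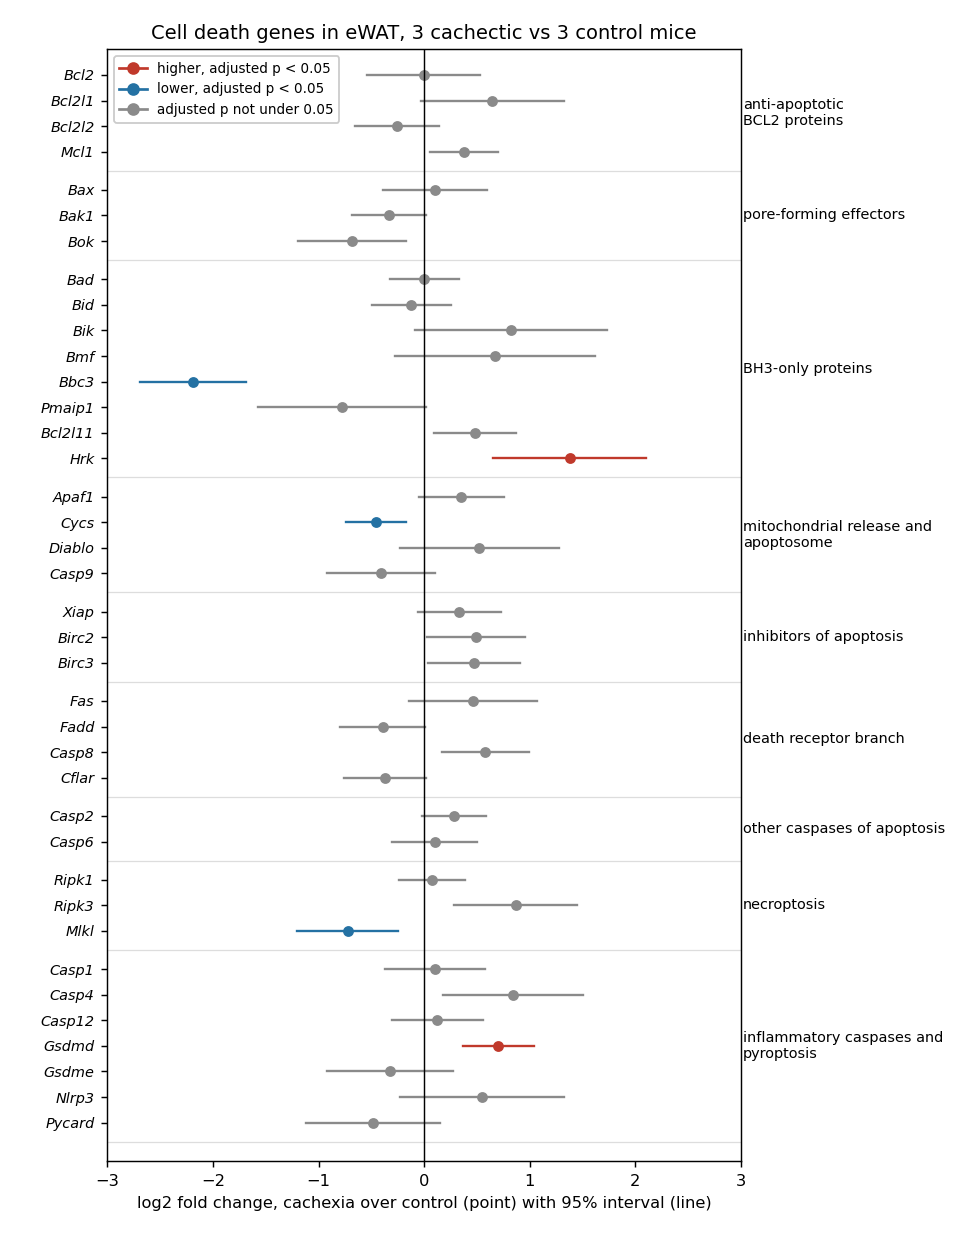
Log2 fold change of cachectic over control mice (horizontal axis) for the 38 cell death genes, grouped by role. Points are the fitted values and lines their 95% intervals (3 mice in each group); Bbc3, at -2.19, lies farthest from 0, and the 5 called genes are colored.

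Marker genes of other cell types also differed between the groups, and in bulk tissue fewer cells of a type and less RNA per cell cannot be told apart. All 9 adipocyte markers were detected in every library, 2 of them higher and 1 lower, with a summed level of 24789 to 31544 CPM in controls and 27974 to 42400 in cachectic mice (CPM, a gene's counts scaled to a common library size). Of 10 neutrophil markers 8 were higher, with 32.2 to 49.2 CPM in controls and 255 to 755 in cachectic mice. Ly6g, a defining marker, had 0 counts in all 3 controls and 8, 10 and 6 in the cachectic mice, too few to be tested. All 5 erythroid markers were higher, with 252 to 451 CPM in controls and 1331 to 2850 in cachectic mice. Of 7 endothelial markers 3 were higher, with 1345 to 1395 CPM in controls and 1822 to 2877 in cachectic mice. Of 7 progenitor and fibroblast markers 1 was higher and 3 were lower, with 5063 to 5790 CPM in controls and 2348 to 3212 in cachectic mice. Of 10 macrophage markers 2 were higher and 1 was lower, and the sums overlapped, with 825 to 1015 CPM in controls and 729 to 1029 in cachectic mice. Of 9 T and NK cell markers 1 was lower, with 11.2 to 19.04 CPM in controls and 5.44 to 9.46 in cachectic mice. The 5 B cell markers (7.11 to 12.7 CPM in controls and 3.34 to 7.68 in cachectic mice) and 5 mesothelial markers (248 to 322 CPM in controls and 135 to 319 in cachectic mice) held 0 calls by edgeR, with 2 and 1 at an unadjusted p under 0.05 and 1 and 0 called by DESeq2. The part of these cells in the results for the death genes was not tested.

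Upstream sequence is shown for the 4 called genes with a window in RefSeq's table (GRCm38.p6), so that the changed genes can be set side by side. Each run covers 230 bases, from 250 to 21 bases before the RefSeq start site, 5′ to 3′ on the gene's own strand, and capitals mark matches to the GC box (GGGCGG), the CCAAT box (CCAAT) or the NF-kB motif on either strand.
Bbc3, chr7:16309333-16309562, plus strand: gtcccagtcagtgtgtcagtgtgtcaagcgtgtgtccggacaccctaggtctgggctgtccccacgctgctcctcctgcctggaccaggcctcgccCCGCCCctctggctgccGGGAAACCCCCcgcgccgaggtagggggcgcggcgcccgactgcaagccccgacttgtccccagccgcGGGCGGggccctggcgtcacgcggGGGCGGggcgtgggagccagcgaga
Cycs, chr6:50566590-50566819, minus strand: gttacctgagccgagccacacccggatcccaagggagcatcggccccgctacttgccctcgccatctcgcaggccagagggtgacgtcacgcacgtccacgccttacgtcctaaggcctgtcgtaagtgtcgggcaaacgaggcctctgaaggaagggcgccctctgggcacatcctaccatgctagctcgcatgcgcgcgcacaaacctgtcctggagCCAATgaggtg
Mlkl, chr8:111338226-111338455, minus strand: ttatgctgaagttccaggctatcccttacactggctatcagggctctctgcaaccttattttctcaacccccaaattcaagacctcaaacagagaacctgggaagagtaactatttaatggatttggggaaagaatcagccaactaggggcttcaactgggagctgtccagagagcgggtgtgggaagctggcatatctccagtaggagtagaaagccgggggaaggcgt
Hrk, chr5:118169514-118169743, plus strand: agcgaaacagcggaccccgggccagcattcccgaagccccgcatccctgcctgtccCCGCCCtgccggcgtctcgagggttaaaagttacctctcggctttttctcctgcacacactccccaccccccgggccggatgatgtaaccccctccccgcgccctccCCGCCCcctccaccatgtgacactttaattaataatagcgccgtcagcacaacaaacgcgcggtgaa
The 4 windows differed in the motifs they hold. The window of Bbc3, whose start site in RefSeq lies 1190 bases inside the deposited gene, holds 3 GC boxes and 2 NF-kB matches that overlap each other. That of Hrk, whose start site lies 5116 bases inside the deposited gene, holds 2 GC boxes. The window of Cycs holds 1 CCAAT box, and no motif searched was found in that of Mlkl. Among the 35 death genes with a window, a GC box was found in 18 (51.4%, against 29.8% of all 32851 windows of this length). A CCAAT box was found in 8 (22.9%, against 32.2%), the NF-kB motif in 3 (8.57%, against 6.68%), the FoxO motif (TGTTTAC) in 2 (5.71%, against 2.91%) and the STAT motif TTCNNNGAA in 2 (5.71%, against 6.48%). The NRF1 motif was found in 0, against 0.615% of all windows. These shares rest on unlike sets, since each death gene entered with the 1 window nearest its deposited start and the comparison used every window. The GC content of the death gene windows was 38.7% to 74.8%. That of all windows was not computed, so nothing is read from the shares about the death genes. A match is a run of letters and not a site of binding.

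Bbc3 showed the largest change of the 38 genes. It encodes PUMA, a BH3-only protein that binds the anti-apoptotic BCL2 proteins. The gene had 18.8, 22.5 and 24.1 CPM in the controls and 4.96, 5.71 and 3.67 in the cachectic mice. Every cachectic mouse lay far below every control mouse, and the spread within each group was small beside the gap. Its control mean was 21.8 ± 2.73 CPM (SD, n = 3), its cachectic mean 4.78 ± 1.03 CPM (SD, n = 3), and the fitted log2 fold change -2.19 (SE 0.22, adjusted p = 0.00164 from edgeR), or 4.56-fold lower. Behind these values stood 375 to 426 counts in controls and 56 to 93 in cachectic mice. Bbc3 (ENSMUSG00000002083) lies on chromosome 7 from 16308393 to 16318205 on the plus strand of GRCm38. In all 15 other settings tried it remained called and lower, with log2 fold changes from -2.33 to -1.81.

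Hrk, which encodes the BH3-only protein harakiri, known mainly from neurons, rose from a low level. It had 1.304, 1.89 and 1.303 CPM in the controls and 3.79, 3.93 and 3.999 in the cachectic mice, which rest on 23 to 33 counts in controls and 61 to 65 in cachectic mice. All cachectic mice lay above all controls and close together. The log2 fold change was 1.38 (SE 0.31, adjusted p = 0.0237 from edgeR). The adjusted p-value was 0.105 without control replicate 3, 0.0593 without cachexia replicate 1 and 0.0580 without cachexia replicate 2. Hrk (ENSMUSG00000046607) lies on chromosome 5 from 118164648 to 118189478 on the plus strand.

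The other 6 BH3-only genes did not pass the test. Bcl2l11, which encodes BIM, a strong activator of BAX and BAK, had 18.0 to 20.6 CPM in controls and 22.9 to 32.0 in cachectic mice, without overlap (log2 fold change 0.48, adjusted p = 0.0865). Bmf had 15.6 to 17.1 CPM in controls but 21.8, 44.2 and 11.9 in the cachectic mice. The cachectic mice thus fell on both sides of the controls, and the log2 fold change of 0.67 (95% interval -0.27 to 1.62) was 0.05 without cachexia replicate 2. Bik had 2.21 to 4.26 CPM in controls and 3.44 to 7.80 in cachectic mice, a log2 fold change of 0.82 with an interval of -0.09 to 1.73. Pmaip1, which encodes NOXA, a partner of MCL1, had 3.09 to 6.72 CPM in controls and 2.70 to 3.15 in cachectic mice (log2 fold change -0.78, interval -1.57 to 0.02). For Bad, which links survival signaling to BCL-XL, the log2 fold change was 0.0035 with an interval of -0.32 to 0.33, and for Bid, a substrate of caspase-8, it was -0.12 with an interval of -0.50 to 0.25.

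Levels of different genes were compared per length, in the FPKM (fragments scaled to library size and gene length) that the authors deposited. Bbc3 made up 22.7% to 30.0% in controls and 5.89% to 7.49% in cachectic mice of the summed level of the 8 BH3-only genes. These shares describe the change already given, since Bbc3 is part of both terms. The summed level of the 8 genes overlapped between the groups, at 34.8 to 38.7 in controls and 28.6 to 38.4 in cachectic mice. In controls Bad (11.5 ± 1.05 FPKM, SD, n = 3) and Bbc3 (10.1 ± 1.26) stood highest and did not differ beyond their spread. In cachectic mice Bad had 11.4 ± 1.08 FPKM (SD, n = 3), while Bbc3, at 2.20 ± 0.475, lay below Bid (5.73 ± 0.579). Bbc3 was also below Bmf (4.83 ± 3.08) and Bcl2l11 (3.21 ± 0.589) in each cachectic mouse, although the SDs met. Against Bik (3.43 ± 1.33) it was lower in cachexia replicates 2 and 3 but not in replicate 1 (2.29 against 2.12 FPKM). Hrk was lowest in both groups, at 0.261 ± 0.0584 and 0.672 ± 0.0165 FPKM (SD, n = 3).

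**Figure D2:**
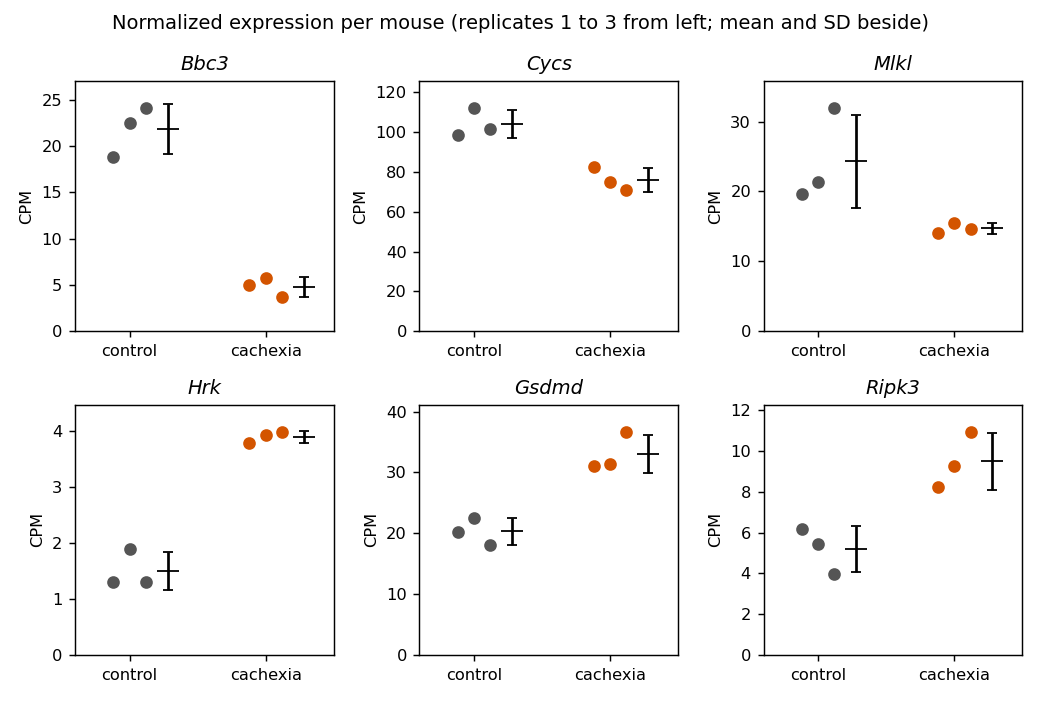
Normalized expression in CPM (vertical axis, from 0) of the 5 called genes and Ripk3 in each of 3 control (grey) and 3 cachectic (orange) mice, with the mean and SD beside the points. The groups do not overlap in any of the 6 panels, and for Mlkl control replicate 3 (32.0 CPM) stands above the other controls.

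Of the 4 anti-apoptotic genes 0 were called by edgeR, with 1 at an unadjusted p under 0.05 and 1 called by DESeq2, Mcl1 in both cases. Mcl1, which encodes a short-lived guardian of the mitochondrial membrane, was the most abundant of the 38 genes per length, at 69.0 ± 5.25 FPKM (SD, n = 3) in controls and 88.8 ± 4.89 in cachectic mice. On the CPM scale it had 236, 259 and 222 CPM in the controls and 295, 307 and 330 in the cachectic mice. There was no overlap between the groups, and the log2 fold change was 0.38 (SE 0.14, adjusted p = 0.0999 from edgeR and 0.0269 from DESeq2). Bcl2l1, which encodes BCL-XL, had 58.6, 37.0 and 35.8 CPM in the controls and 65.4, 45.9 and 94.3 in the cachectic mice. Control replicate 1 lay above cachexia replicate 2 (log2 fold change 0.65, interval -0.03 to 1.32, adjusted p = 0.161). Bcl2l2, which encodes BCL-W, had a log2 fold change of -0.26 and an interval of -0.65 to 0.14. Bcl2, the founding gene of the family, had 23.7 to 36.7 CPM in controls and 22.8 to 35.7 in cachectic mice, a log2 fold change of -0.0040 with an interval of -0.54 to 0.53.

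The 3 effectors that form the mitochondrial pore held 0 calls by edgeR, with Bok alone at an unadjusted p under 0.05 and called by DESeq2. Bax had 27.9, 20.98 and 19.04 CPM in the controls and 21.1, 21.1 and 30.8 in the cachectic mice, and the groups overlapped (log2 fold change 0.10, interval -0.39 to 0.60). Bak1, the other main effector, had 21.5 to 23.3 CPM in controls and 14.9 to 19.1 in cachectic mice, without overlap (log2 fold change -0.33, adjusted p = 0.164). Bok, a relative of both, had 29.7, 22.1 and 21.6 CPM in the controls and 12.2, 19.7 and 13.8 in the cachectic mice. It too did not overlap, and its log2 fold change was -0.68 (SE 0.22, adjusted p = 0.0711 from edgeR). The adjusted p-value was 0.0381 in DESeq2 and 0.0362 without cachexia replicate 2.

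Ratios of these genes per length describe the balance within each mouse, and none was tested. The ratio of Bax to Bcl2 was 6.83, 3.32 and 4.47 in the controls and 4.63, 5.37 and 5.01 in the cachectic mice. All 3 cachectic values fell within the range of the controls. The ratio of the summed anti-apoptotic to the summed BH3-only genes was 2.37 to 2.96 in controls and 2.90 to 4.55 in cachectic mice, where cachexia replicate 2 overlapped the controls. Bbc3 is part of the BH3-only sum, so this ratio holds the change already given for Bbc3. Mcl1 held most of the anti-apoptotic sum in every mouse, with 68.8% to 72.3% in controls and 71.2% to 78.8% in cachectic mice.

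Of the 4 genes of mitochondrial release and the apoptosome, Cycs fell and 3 did not pass. Cycs encodes cytochrome c, which carries electrons in the respiratory chain of living cells and starts the apoptosome when it leaks out. It had 98.7, 112 and 102 CPM in the controls and 82.3, 75.0 and 70.8 in the cachectic mice. The decrease was modest and without overlap (log2 fold change -0.45 with an SE of 0.12, 1.37-fold lower, adjusted p = 0.0407 from edgeR). The call was lost when any 1 of the 6 libraries was left out, with adjusted p-values of 0.0590, 0.142 and 0.127 without control replicates 1, 2 and 3 and 0.0618, 0.0867 and 0.0778 without cachexia replicates 1, 2 and 3. With 1 library left out, 5.02% to 14.2% of all genes were called, against 17.6% with all libraries. In the 15 other settings the log2 fold change of Cycs lay between -0.52 and -0.40. Cycs (ENSMUSG00000063694) lies on chromosome 6 from 50562563 to 50566538 on the minus strand. Its partner Apaf1 had 18.0 to 22.8 CPM in controls and 21.2 to 29.1 in cachectic mice (log2 fold change 0.35, interval -0.05 to 0.75). Casp9, the initiator caspase of this route, had 35.2 to 41.2 CPM in controls and 27.1, 38.9 and 20.8 in the cachectic mice (log2 fold change -0.41, adjusted p = 0.238). Without cachexia replicate 2 its log2 fold change was -0.68 with an adjusted p of 0.0479. Diablo, which encodes the IAP antagonist SMAC, was low, at 4.19 to 7.45 CPM in controls and 6.18 to 10.9 in cachectic mice, and 2641 of its 6166 exonic bases are shared with 3 other genes.

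The 3 inhibitors of apoptosis, which bind caspases or TNF receptor complexes, held 0 calls by edgeR or DESeq2, with Birc2 and Birc3 at an unadjusted p under 0.05. Xiap, the direct caspase inhibitor, had 125 to 181 CPM in controls and 191 to 215 in cachectic mice, without overlap (log2 fold change 0.33, adjusted p = 0.211). Birc2 (cIAP1) had 54.3 to 58.3 CPM in controls and 59.5, 73.0 and 104 in the cachectic mice, a log2 fold change of 0.49 (adjusted p = 0.128). Birc3 (cIAP2), a target of NF-kB, had 24.5 to 30.6 CPM in controls and 28.3, 42.9 and 41.5 in the cachectic mice. Its log2 fold change was 0.47 (adjusted p = 0.121), and 0.64 without cachexia replicate 1 (adjusted p = 0.0436), the mouse that overlapped the controls.

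In the death receptor branch 0 of 4 genes were called by edgeR, with Casp8 alone at an unadjusted p under 0.05 and called by DESeq2. Casp8, the initiator caspase that also restrains necroptosis, had 51.6, 64.6 and 64.5 CPM in the controls and 81.5, 77.1 and 111 in the cachectic mice. All cachectic mice lay above all controls (log2 fold change 0.58 with an SE of 0.18, adjusted p = 0.0584 from edgeR), and the adjusted p was 0.0275 in DESeq2 and 0.0367 with plain library totals. Cflar, which encodes the caspase-8 inhibitor cFLIP and lies 36489 bases from Casp8 on chromosome 1, had 146, 213 and 185 CPM in the controls and 145, 147 and 129 in the cachectic mice (log2 fold change -0.37, interval -0.76 to 0.02). Its control replicate 1 lay among the cachectic mice. Fas, the receptor, had 22.8 to 39.9 CPM in controls and 29.9 to 51.7 in cachectic mice (log2 fold change 0.46, interval -0.15 to 1.07). Fadd, the adaptor, had 13.6 to 15.001 CPM in controls and 9.77 to 12.7 in cachectic mice, without overlap (log2 fold change -0.39, adjusted p = 0.153). Among the other caspases, Casp2 had a log2 fold change of 0.28 (interval -0.02 to 0.58) without overlap between the groups, and Casp6, an executioner, had 0.10 (interval -0.30 to 0.50).

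**Figure D3:**
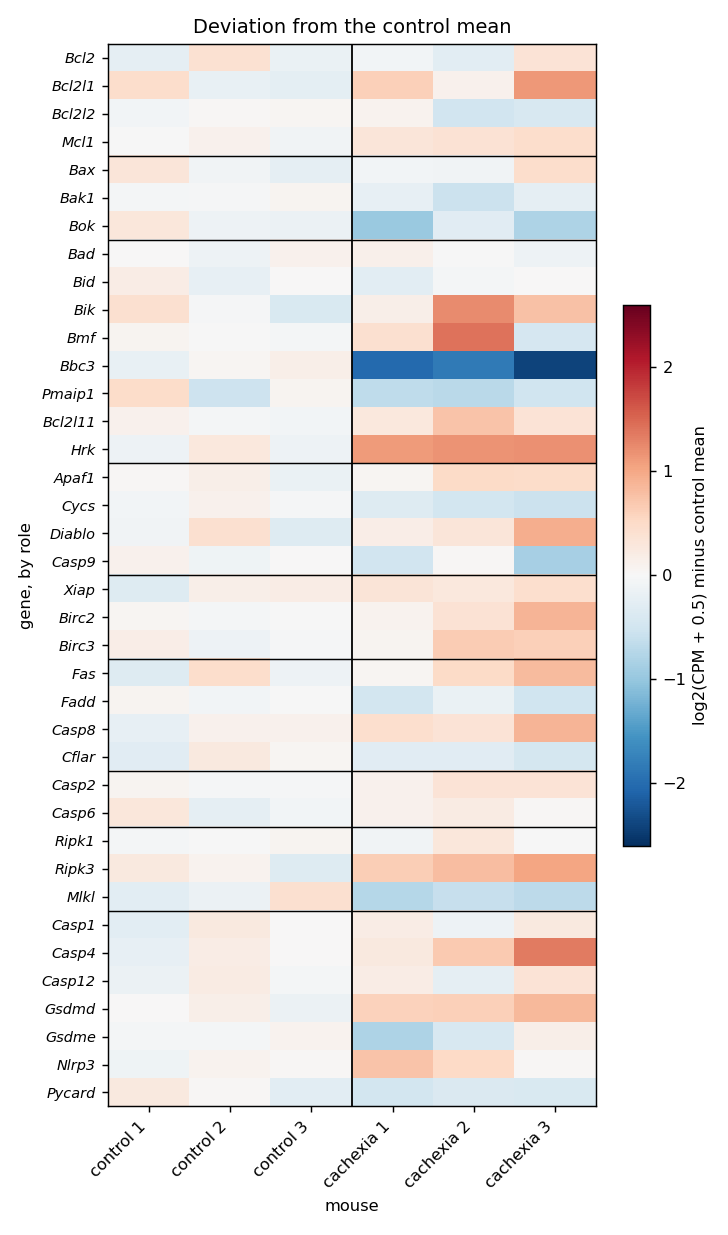
Deviation of log2(CPM + 0.5) from the mean of the 3 controls for each of the 38 genes (rows, black lines part the roles) in each mouse (columns). Red is higher and blue lower; Bbc3 is dark blue and Hrk red in all 3 cachectic mice, while Bmf is dark in cachexia replicate 2 and Casp4 in cachexia replicate 3.

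Of the 3 necroptosis genes Mlkl fell and 2 did not pass. Mlkl, whose product breaks the plasma membrane once phosphorylated, had 19.6, 21.4 and 32.0 CPM in the controls and 14.0, 15.5 and 14.6 in the cachectic mice. Every cachectic mouse lay below every control, and control replicate 3 stood above the rest (log2 fold change -0.72 with an SE of 0.21, 1.65-fold lower, adjusted p = 0.0475 from edgeR). Without control replicate 3 the log2 fold change was -0.48 and the adjusted p 0.160. The call was also lost without control replicate 2 (adjusted p = 0.0867) and without cachexia replicate 1, 2 or 3 (0.118, 0.0882 and 0.0973). Mlkl (ENSMUSG00000012519) lies on chromosome 8 from 111311797 to 111338177 on the minus strand. Ripk3, the kinase that phosphorylates MLKL, had 6.17, 5.44 and 3.97 CPM in the controls and 8.22, 9.27 and 10.9 in the cachectic mice. All its cachectic values were above its control values, and the log2 fold change of 0.87 (SE 0.25) narrowly missed the threshold (adjusted p = 0.0502 from edgeR, 0.0136 from DESeq2). Ripk1, the kinase upstream of both, had 52.1 to 57.1 CPM in controls and 51.1 to 66.4 in cachectic mice, a log2 fold change of 0.08 with an interval of -0.24 to 0.39. Per length, the ratio of Mlkl to Ripk3 was 3.16, 3.91 and 8.02 in the controls and 1.69, 1.67 and 1.33 in the cachectic mice, so Mlkl was the more abundant transcript in every mouse. The ratio was chosen after the values were seen and was not tested.

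Of the 7 inflammatory caspase and pyroptosis genes Gsdmd rose and 6 did not pass. Gsdmd encodes gasdermin D, which forms pores in the plasma membrane after inflammatory caspases cut it. It had 20.3, 22.5 and 18.1 CPM in the controls and 31.0, 31.3 and 36.7 in the cachectic mice. All cachectic mice lay above all controls, by more than the spread within a group. Its control mean was 20.3 ± 2.20 CPM (SD, n = 3), its cachectic mean 33.0 ± 3.20 CPM (SD, n = 3), and the fitted log2 fold change 0.70 (SE 0.14, 1.63-fold higher, adjusted p = 0.0172 from edgeR). Gsdmd (ENSMUSG00000022575) lies on chromosome 15 from 75862327 to 75867408 on the plus strand. It was called in 14 of the 15 other settings, and without control replicate 3 the adjusted p was 0.0886. Gsdme, a gasdermin that an apoptotic caspase cuts, had 13.4 to 14.9 CPM in controls and 7.70, 10.3 and 15.4 in the cachectic mice (log2 fold change -0.32, interval -0.92 to 0.27).

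The caspases that cut gasdermin D did not pass. Casp4, the mouse gene for caspase-11, which senses bacterial lipopolysaccharide, had 9.58, 12.8 and 11.2 CPM in the controls and 13.3, 18.0 and 29.0 in the cachectic mice. The cachectic mice lay above the controls but spread widely (log2 fold change 0.84 with an SE of 0.29, adjusted p = 0.0805 from edgeR). DESeq2 gave 0.0383 and the edgeR fit without cachexia replicate 1 gave 0.0411 as the adjusted p. Its neighbors on chromosome 9, Casp1 (1562 bases away) and Casp12 (8646 bases away), had log2 fold changes of 0.10 (interval -0.37 to 0.58) and 0.13 (interval -0.31 to 0.56). Casp1 encodes the caspase of the canonical inflammasome and Casp12 a relative tied to stress of the endoplasmic reticulum. The inflammasome's sensor and adaptor had few counts. Nlrp3 had 1.91 to 2.29 CPM in controls and 3.85, 3.25 and 2.16 in the cachectic mice (log2 fold change 0.55, interval -0.23 to 1.32). Pycard, the adaptor ASC, had 3.91 to 5.82 CPM in controls and 3.32 to 3.62 in cachectic mice, without overlap (log2 fold change -0.48, adjusted p = 0.252).

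Among death genes that lie close together, no pair had both genes called. Besides the caspases on chromosome 9 and the pair of Cflar and Casp8, Birc2 and Birc3 lie 11634 bases apart on chromosome 9, and Gsdme and Cycs lie 298700 bases apart on chromosome 6. The exons of 11 of the 38 genes overlap those of another gene in the GENCODE M21 annotation, namely Bad, Bak1, Bax, Bcl2, Bcl2l2, Bid, Casp9, Diablo, Fadd, Pycard and Ripk1. The strand setting of the counting was not given, so reads in the shared bases of these genes are uncertain. None of the 5 called genes is among them.

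Around the 38 genes, 89 further genes of the same pathways were listed by name, of which 74 had enough counts to be tested. Of these 6 were higher and 1 was lower (9.46%, against 17.6% of all genes tested), with a median log2 fold change of 0.05. Txnip, whose product binds thioredoxin and restrains glucose uptake, rose, with 989 ± 256 CPM in controls and 3713 ± 72.6 in cachectic mice (SD, n = 3 for each), a log2 fold change of 1.91 (adjusted p = 0.00398 from edgeR). Bnip3 and Bnip3l, BH3-like proteins of the outer mitochondrial membrane known for mitophagy, rose from 284 ± 9.81 to 628 ± 98.9 and from 158 ± 14.0 to 282 ± 1.62 CPM (SD, n = 3 for each), with log2 fold changes of 1.15 and 0.84. Tmbim1 (log2 fold change 1.31), Bclaf1 (0.48) and Cidec (0.87), a lipid droplet protein that also counts among the 9 adipocyte markers, were higher too. The exons of Txnip, Bnip3 and Tmbim1 overlap a gene on the other strand. Nlrp1a, an inflammasome sensor with close copies, was lower, with 0.903 to 1.19 CPM in controls and 0.197 to 0.430 in cachectic mice, and its level is uncertain. Of 16 tested death ligands, receptors and adaptors 0 were called by edgeR or DESeq2, with 1 at an unadjusted p under 0.05. Of 7 tested necroptosis neighbors 0 were called by edgeR, with 3 at an unadjusted p under 0.05 and 1 called by DESeq2.

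The calls of the death genes held to different degrees across the settings tried. Bbc3 was called in all 15 other settings, Gsdmd in 14, Hrk in 9, Cycs in 6 and Mlkl in 5, and all 5 kept their direction in every one. Of the genes not called in the reported fit, Ripk3 was called in 3 settings, Bok, Casp8 and Casp4 in 2 each, and Mcl1, Casp9 and Birc3 in 1 each. The other 26 genes were called in none. DESeq2 called 10 of the 38 genes (26.3%), against 24.3% of all genes it tested.

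**Figure D4:**
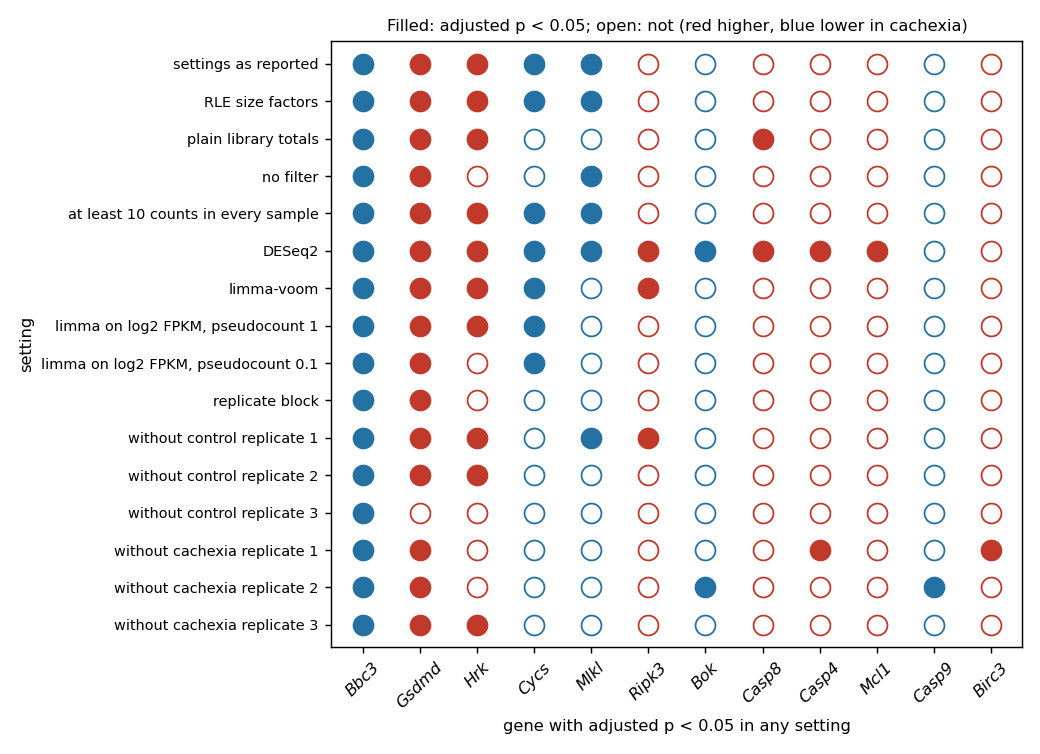
Calls for the 12 genes with an adjusted p-value under 0.05 in any setting (columns) under the reported fit and 15 other settings (rows). Filled circles are called and open circles are not, red is higher and blue lower in cachectic mice; the column of Bbc3 is filled throughout, and that of Gsdmd in all settings but 1.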

How the data were processed

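Libraries of eWAT from 3 control and 3 cachectic mice were sequenced by the authors as paired-end reads, trimmed, aligned with Hisat2 and counted per gene with featureCounts 1.5.0-p3. The authors deposited raw counts and FPKM calculated from counts and gene length. The submitters' processing notes name mm9, but 98.3% of genes had the coordinates of GENCODE M21 (GRCm38), which are given here. Strandedness of counting is not given in the sources used here. A table of the authors' own DESeq2 1.16.1 comparison (fold changes, p-values and normalized values) was not used.

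Raw counts were normalized by TMM and filtered with filterByExpr, leaving 16003 genes, and tested with edgeR 4.0.16 (quasi-likelihood test, 3 against 3, no covariate) in R 4.3.3. P-values were adjusted by Benjamini and Hochberg's method over all genes tested. Standard errors are the log2 fold change divided by the square root of F. CPM are counts scaled to the TMM-adjusted library size. A pseudocount of 0.5 was added for log2 CPM, which served for plotting, the overlap of groups, the permutation test and the correlations between mice. Normalization factors were 0.937 to 1.07, and 1 count was worth 0.0502 to 0.0656 CPM. Comparing all pairs of libraries by chi-square found no library deposited as 2 samples. The scripts were tested on simulated data. Alternatives were DESeq2 1.42.0, limma 3.58.1 (voom, or log2 FPKM with pseudocounts of 1 and 0.1), other normalizations and filters, a replicate block, and leaving out each library. All 38 genes are named, with genes of the further lists named where called. The members and lists were chosen with earlier results of these data known.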

Additional observations from a re-analysis of the deposited data

How the results depend on the processing

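Of the 38 genes, the number higher in cachectic mice was 2 as reported, 1 with no filter, with FPKM at a pseudocount of 0.1 and with the replicate block, and 6 with DESeq2, and ranged from 0 to 3 with 1 library left out. The number lower was 3 as reported, 1 with plain library totals and with the block, and 1 to 3 with 1 library left out. Among the neighbors the number lower was 1 as reported, 0 with plain library totals, with at least 10 counts in every sample, with FPKM at a pseudocount of 1 or 0.1 and with the block, 4 with DESeq2, 2 with voom and 0 to 3 with 1 library left out. The number of neighbors higher was 6 as reported, 4 to 9 in the other settings with all libraries (9 with DESeq2), and 3 to 6 with 1 library left out. All genes called ranged from 828 (without control replicate 3) to 2339 with 1 library left out, and was 1312 without control replicate 2, against 2821. All genes called made up 17.6% as reported, 8.98% with no filter, 12% with FPKM at a pseudocount of 0.1 and 24.3% with DESeq2. They made up 16.4% with plain library totals, 11.8% with the block and 5.02% to 14.2% with 1 library left out. For the 38 genes the shares were, in this order, 13.2%, 7.89%, 7.89% and 26.3%, then 10.5%, 5.26% and 2.63% to 13.2%. Nothing is read from these counts about the lists. Plain library totals moved the median log2 fold change of all genes to 0.05.

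Genes near 0 changed sign. Bcl2 had log2 fold changes of 0.054 with plain library totals, 0.0015 with the block, and -0.20 to 0.22 with 1 library left out. Bad had -0.0045 with at least 10 counts and -0.011 and -0.012 with FPKM at pseudocounts of 1 and 0.1. With 1 library left out, Bad ranged from -0.068 to 0.069, Bax from -0.10 to 0.28, Casp6 from -0.015 to 0.27, Ripk1 from -0.041 to 0.15, Casp1 from -0.027 to 0.25 and Casp12 from -0.0042 to 0.28. The causes were not tested. Replicate numbers showed no sign of pairing the mice. Same-numbered mice correlated at -0.0031, -0.011 and 0.0085 in their deviations from group means, and differently numbered mice at -0.024 to 0.023. A pairing that affects few genes would not be seen in this way. The block called 1881 genes.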
